A study of Mus musculus with 6 samples.

Results

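The genes described are those that encode the proteins of the cytosolic ribosome in the brown fat of control mice and of mice kept in the cold for 24 h. They were chosen by name from the GENCODE M21 annotation: protein-coding genes whose symbol begins with Rpl or Rps and a digit, with Rplp0, Rplp1, Rplp2, Rpsa and Fau. Pseudogenes, the Rps6k kinases and Rps19bp1 were left out, and so was Rps24, whose values are given once for comparison. The rule gave 85 genes, 52 of the large and 33 of the small subunit. Reads fell on 84 of them, of 8129 genes with reads in all. Counts of 79 of them, 47 large and 32 small, passed the filter on low counts, of 2093 genes tested.

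The tissue was interscapular brown adipose tissue of male wild-type C57BL/6N mice aged 20 weeks, with 3 control libraries (mice 2, 9 and 14) and 3 cold libraries (mice 4, 11 and 15), 1 mouse each. Cold mice were housed singly at 4 °C, and the husbandry text gives 22 to 24 °C. The cold treatment is written on the records of all 6 samples, so the groups rest on the titles and the treatment tag. Whether control mice were housed singly is not stated, and single housing and cold cannot be told apart. The tissue label gives brown fat, but the protocol for extraction speaks of eWAT, which is white fat. Full-length cDNA made from capped poly(A) RNA was amplified and read on nanopore flow cells, so that by design 1 read stands for 1 cDNA molecule of any length. Levels are therefore given as CPM, the count as a part of the library total after TMM scaling, and were not divided by length.

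The cytosolic ribosome translates the messages of the cell nucleus. Its small subunit reads the message and its large subunit joins the amino acids, each being a set of ribosomal RNAs clothed by proteins that are mostly present in single copy. Many ribosomal protein messages begin with a C followed by a run of pyrimidines, the 5′ terminal oligopyrimidine (TOP) tract, through which mTOR and LARP1 control their translation. In brown fat, cold evokes heat production by uncoupled mitochondria, and most proteins of these organelles are made on cytosolic ribosomes.

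The start of the message is printed for several members because it carries the feature for which this family is best known. Each line holds the 15 bases before and the 15 bases from the RefSeq start, 5′ to 3′ on the strand of the gene, on GRCm38.p6. Capitals mark a stretch of at least 5 C or T, here called the tract, that is counted from a C within 3 bases of the start. More pyrimidines can lie before that C, as in Rpl35.
Rpl35 (chr2:39005117-39005146, minus strand): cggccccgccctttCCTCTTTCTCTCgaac
Rpl18 (chr7:45718056-45718085, plus strand): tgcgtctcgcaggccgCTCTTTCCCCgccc
Fau (chr19:6057932-6057961, plus strand): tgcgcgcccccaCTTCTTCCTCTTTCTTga
Rpl28 (chr7:4792950-4792979, plus strand): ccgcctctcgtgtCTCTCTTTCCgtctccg
Rplp2 (chr7:141447636-141447665, plus strand): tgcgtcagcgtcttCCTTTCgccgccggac
Of these 5 genes, Rpl35 had the largest rise in the cold and Rpl18 the largest fall, and both carry the tract. The next 4 were called lower in the cold, and no such stretch lies at their RefSeq start.
Rps19 (chr7:24884577-24884606, plus strand): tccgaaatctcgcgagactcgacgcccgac
Rpl11 (chr4:136053379-136053408, minus strand): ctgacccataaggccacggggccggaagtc
Rps25 (chr9:44407699-44407728, plus strand): tttttccgacatcttagcgaggctgctgtg
Rpl36a (chrX:134585639-134585668, plus strand): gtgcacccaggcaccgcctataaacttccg
A RefSeq window was found for 64 of the 84 genes with reads, and 26 of them (40.6%) had the tract. Over all protein-coding genes with a window the share was 13.2% (2311 of 17492). In 15 of the 64 (23.4%), and in 2.67% of all, the start base was itself a C with at least 5 pyrimidines counted from it, whether or not others came before. Windows for Rps20, Rpl21, Rpl36 and Rplp1 were not used here. These tracts are letters at an annotated start, which may not be the start used in brown fat.

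The share of reads on ribosomal protein genes overlapped between the groups. They held 3.51%, 2.21% and 2.39% of the reads of control mice 2, 9 and 14, and 2.42%, 2.14% and 3.10% of those of cold mice 4, 11 and 15. Its means were 2.70% ± 0.701 (SD, n = 3) in control and 2.56% ± 0.496 (SD, n = 3) in cold, a difference of -0.147 percentage points. Wilson 95% intervals of a single share were narrow, 3.48% to 3.53% in control mouse 2, and cover counting error only. Large-subunit genes held 1.85% ± 0.464 and 1.77% ± 0.315 (SD, n = 3), and small-subunit genes 0.849% ± 0.238 and 0.787% ± 0.183 (SD, n = 3), control before cold. For each small-subunit read there were 2.13, 2.31 and 2.14 large-subunit reads in control and 2.39, 2.29 and 2.12 in cold, again overlapping. In bulk tissue, fewer cells of a type and less RNA per cell cannot be told apart.

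**Figure D1:**
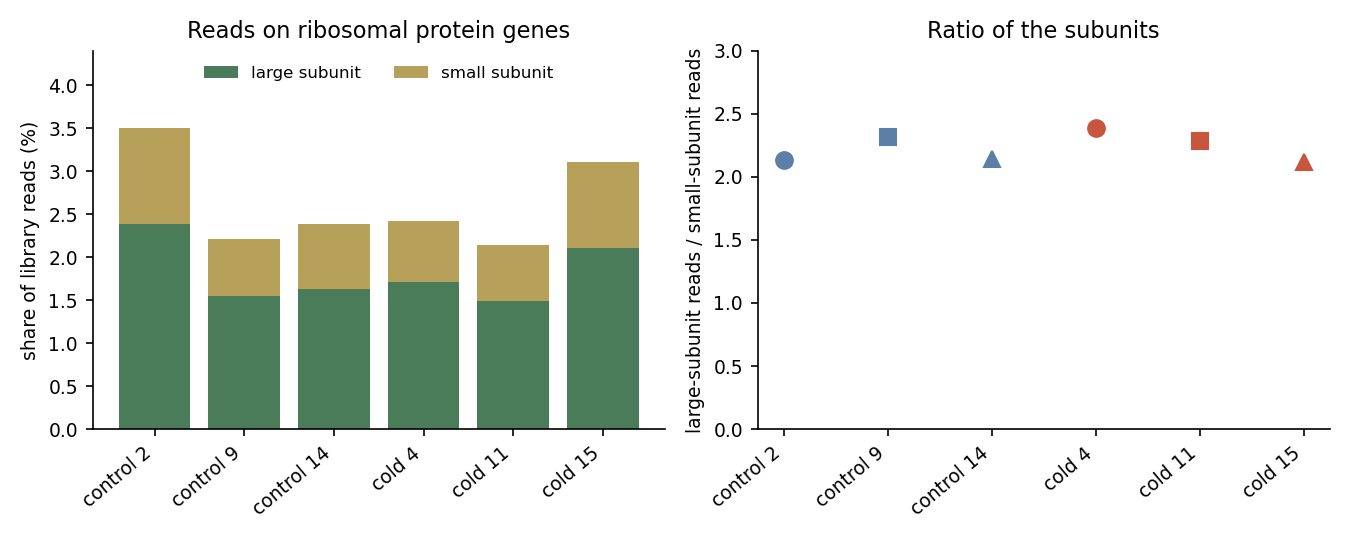
Left, share of library reads (%) on large-subunit and small-subunit ribosomal protein genes, stacked, in each of the 6 libraries. Right, large-subunit reads per small-subunit read in each library. Control 2 (3.51%) and cold 15 (3.10%) have the tallest bars, and the ratio stays between 2.12 and 2.39.

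Control mouse 2 and cold mouse 15 stood apart from the other libraries for this family. Control 2 was the highest of the control libraries in 73 of the 79 tested genes (92.4%) and cold 15 the highest of the cold libraries in 73 of 79 (92.4%). Over all 2093 tested genes these shares were 34.3% and 36.2%. Cold 11 was the lowest of its group in 69 and control 9 in 51 of the 79. The median deviation from the group mean, on the log2 scale, was 0.40 in control 2 and 0.38 in cold 15, against -0.31 to -0.10 in the other 4 libraries. Most members thus stood high or low together in a given mouse, in both groups.

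Several measured properties of the libraries differed alongside. Control 2 had the shortest mean annotated length of counted transcripts, 1364 nt against 1490 to 1577 nt elsewhere. Cold 15 had the shortest of the cold group, 1529 nt against 1561 and 1577 nt in cold 4 and cold 11. With offsets for length fitted in each library, the median deviations shrank to 0.19 in control 2 and 0.26 in cold 15. Summed skeletal muscle markers reached 5361 CPM in cold 15, against 55.2 to 1044 CPM in the other 5 libraries, and were lowest in control 2. Summed macrophage markers were 122 CPM in cold 15 and 52.8 to 86.3 CPM elsewhere, with Cd68, Adgre1, Csf1r and Mrc1 at 0 in all 6. Summed fibroblast markers were low, but within each group they were highest in control 2 and in cold 15. They were 17.8 CPM in control 2 against 7.19 and 7.80 CPM in control 9 and control 14. In cold 15 they were 22.1 CPM, against 11.1 and 13.6 CPM in cold 4 and cold 11, with Col1a1, Col3a1 and Pdgfra at 0 in all 6. All 8 brown adipocyte markers had reads, with sums of 14189 to 19023 CPM in control and 13834 to 14854 CPM in cold, and the 4 markers of dividing cells were at 0. Red blood cell markers summed to 14978 to 28132 CPM over the 6 libraries. Some sums separated the groups without overlap: white adipocyte markers (66.5 to 119 CPM in control, 166 to 256 CPM in cold), adipocyte markers (40166 to 45302 and 54867 to 62232 CPM) and nerve and Schwann cell markers (112 to 187 and 75.5 to 95.2 CPM). A sum need not hold for each marker. Of the 6 adipocyte markers, all tested, 1 was called higher and 1 lower, where 33.2% of all tested genes were called. Only 1 white adipocyte marker (called higher) and 1 nerve and Schwann cell marker (called lower) could be tested. Mitochondrially encoded genes held 4.66% to 6.84% of control and 2.36% to 3.16% of cold reads. Totals were 1014812 to 1849351 reads in control and 2922939 to 2982630 in cold, so every cold library was the deeper. The part of these properties in the results below was not tested beyond the alternatives given beside them.

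**Figure D2:**
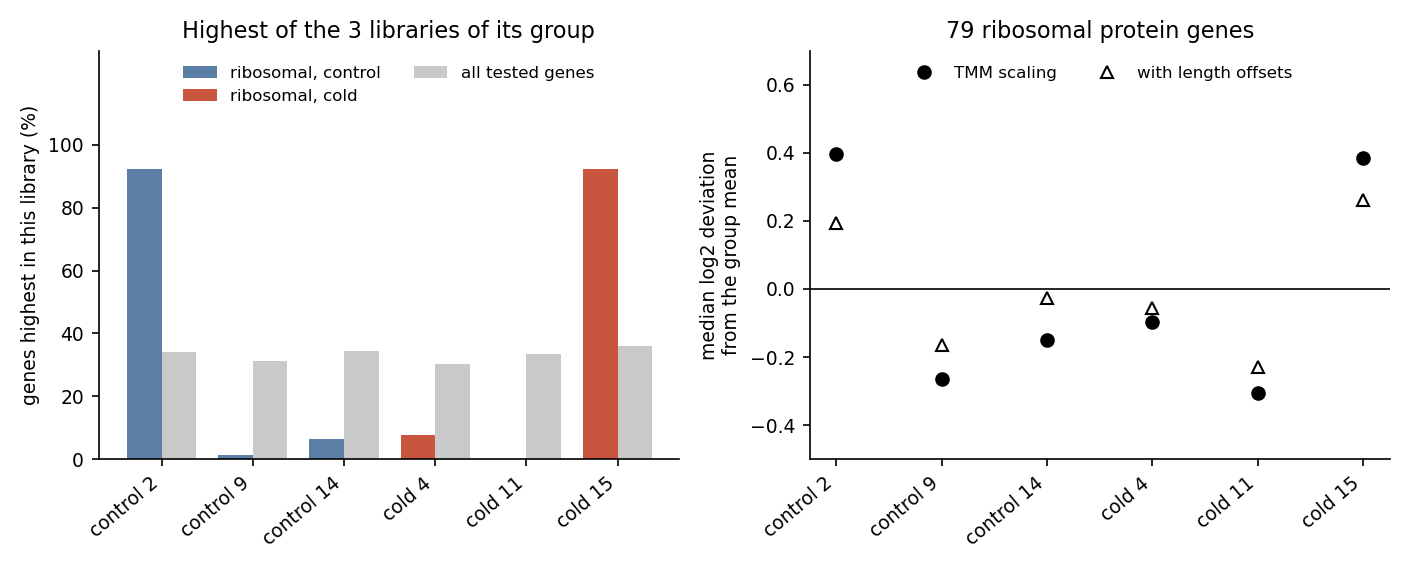
Left, percent of tested genes that are highest in a library among the 3 of its group, for ribosomal protein genes (coloured) and all tested genes (grey). Right, median log2 deviation of the 79 ribosomal protein genes from the group mean, with TMM scaling (filled) and with length offsets (open). Control 2 and cold 15 reach 92.4% on the left and stay above 0 on the right under both scalings.

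Levels of the tested members ran from 5.89 CPM (Rpl3) to 2986 CPM (Rplp1), averaged over the 6 libraries, a 507-fold span. The 8 most abundant held 47.9% of all member reads. In order of mean level they were Rplp1, Rpl23a, Rpl24, Rpl19, Rpl28, Rplp2, Rps27l and Rpl41. Of the 79, 7 lay above 1000 CPM and 29 below 100 CPM. The order was nearly the same in both groups: across the 79 genes, log2 mean levels in control and cold had a Pearson correlation of 0.97, where genes share the libraries and are not independent replicates. Level did not follow the annotated length of the main transcript (Spearman 0.05 across the same genes, on the CPM scale). How long the reads were is not known from counts. Neighbours in this order can overlap across mice, as did Rpl24 at 1277 to 1992 CPM and the next, Rpl19, at 999.8 to 1794 CPM.

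**Figure D3:**
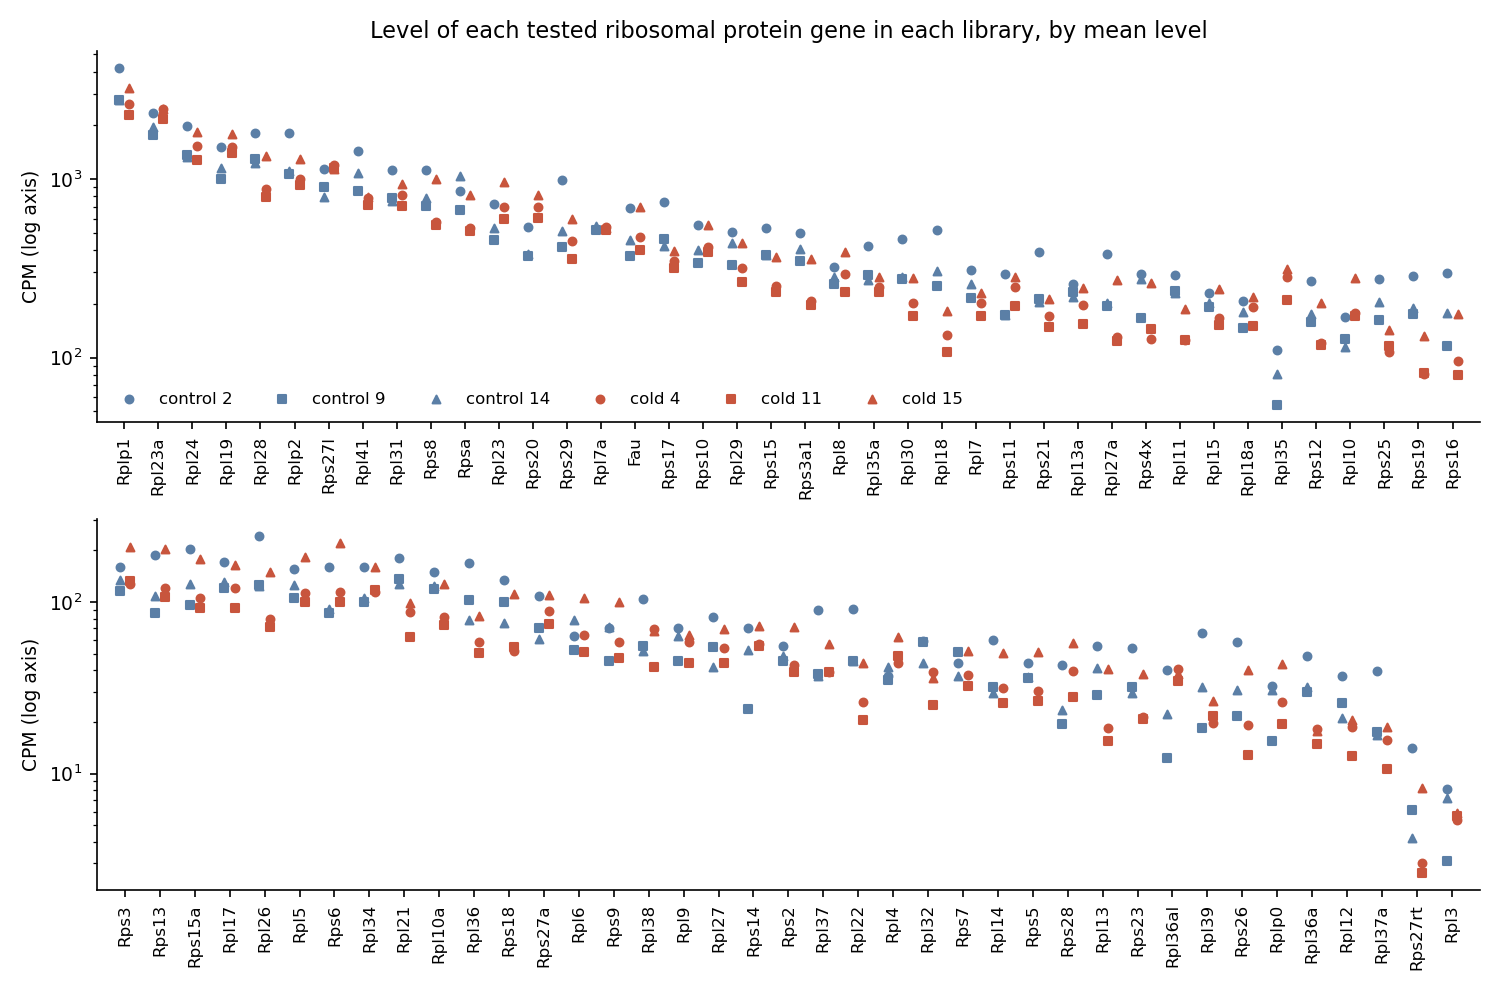
Level (CPM, log axis) of each of the 79 tested ribosomal protein genes in each of the 6 libraries, ordered by mean level. Control libraries are blue and cold libraries red, and the symbols tell the mice apart. Levels fall from 2986 CPM for Rplp1 to 5.89 CPM for Rpl3, and for most genes blue and red overlap.

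Among the 8 most abundant members none was called changed in the reported test. Rplp1, Rplp2 and Rpl24 were not called under any alternative either. Rplp1, which with Rplp2 forms the flexible stalk that recruits elongation factors, measured 4214, 2785 and 2765 CPM in control and 2636, 2273 and 3245 CPM in cold. Its log2 change was -0.26 ± 0.20 (SE; edgeR adjusted p = 0.344), with a 95% interval of -0.70 to 0.18. Rplp2 measured 1814, 1075 and 1105 CPM against 1002, 930 and 1298 CPM, a log2 change of -0.31 ± 0.23 (SE; adjusted p = 0.325). The groups overlapped for both. Rplp0, the base to which these stalk proteins bind, was far lower, at 26.2 ± 9.35 CPM (SD, n = 3) in control and 29.7 ± 12.4 CPM (SD, n = 3) in cold (log2 change 0.15 ± 0.35, SE; adjusted p = 0.768). Rpl23a, near the mouth of the exit tunnel, measured 2021 ± 287 and 2360 ± 174 CPM (SD, n = 3; log2 change 0.22, adjusted p = 0.296). Rpl24, which bridges the subunits, gave 1567 ± 368 and 1545 ± 275 CPM (SD, n = 3; log2 change -0.02, adjusted p = 0.946). Rpl19, another bridge protein, gave 1219 ± 259 and 1566 ± 206 CPM (SD, n = 3; log2 change 0.36, adjusted p = 0.162). Rpl28 gave 1440 ± 318 and 1007 ± 299 CPM (SD, n = 3; log2 change -0.52, adjusted p = 0.108). With length offsets Rpl23a (adjusted p = 0.0208) and Rpl19 (0.0112) were called higher and Rpl28 (0.0415) lower. Rpl19 was also called higher without control 2 (adjusted p = 0.0219), and Rpl28 lower without cold 15 (adjusted p = 0.0252). Without both control 2 and cold 15, Rpl19 was called higher and Rpl28 lower as well. Rpl41, the smallest ribosomal protein, lay lower in every cold mouse, at 787, 714 and 795 CPM against 1446, 855 and 1076 CPM. Its log2 change of -0.56 ± 0.20 (SE) missed the threshold (adjusted p = 0.0539), but DESeq2 put it past the threshold (adjusted p = 0.0262), as did TMM without the members (0.0483), thinning (0.0437), the second flow cell alone (0.0403) and leaving out control 9 (0.0192).

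In the comparison of cold with control, a smaller share of ribosomal protein genes was called than of all tested genes. At an adjusted p under 0.05, 10 of the 79 were called (12.7%), 2 higher and 8 lower, where 33.2% of all 2093 tested genes were called, 18.1% higher and 15.1% lower. The large subunit had 1 higher and 6 lower of 47, and the small subunit 1 higher and 2 lower of 32. At an unadjusted p under 0.05 there were 19 of the 79. Cold and control libraries did not overlap in 16 members (20.3%), with cold below in 12 and above in 4, against 47.8% of all tested genes. The median log2 change was -0.25 over the 79 (-0.25 large, -0.24 small), with a middle range of -0.62 to 0.10, and 0.04 over all tested genes. Of the 79 changes, 52 were below 0 and 27 above.

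The median SE of a change was 0.26 in this family and 0.29 over all tested genes. The members spread more between mice of a group: the median log2 range was 0.70 in control and 0.69 in cold, against 0.65 and 0.44 over all tested genes. For 39 of the 79, the 95% interval kept within a 2-fold change in either direction. The gap between the share of members called and that of all genes changed with the filter and with the libraries used. With no filter on low counts, 8.33% of 84 members were called against 8.71% of 8129 genes. The genes called were 708 of 8129 without the filter and 695 of 2093 with it. The share over all genes thus fell mainly through the scarce genes added to the total, so this setting cannot compare the shares. Without cold 15 the calls rose to 1 higher and 21 lower, 27.8% of the members against 29.8% of all genes tested there, with a median of -0.46, and without control 2 they were 7 higher and 6 lower (16.5% against 28.9%), with a median of -0.03. Without control 9, and likewise without control 14, there were 1 higher and 10 lower, 13.9% of the members against 25.1% and 26.6% of all genes. Without cold 4 there were 1 higher and 3 lower (5.06% against 24.6%), and without cold 11 there were 2 and 3 (6.33% against 25.3%). With both control 2 and cold 15 left out there were 5 and 20, 32.1% of the members against 32.5% of all genes. That pair was picked after the members were seen to stand highest in it. Leaving it out narrows their spread by that choice, so nothing is drawn from this setting. With length offsets the calls were 7 higher and 12 lower (24.1% against 37.2%). Each library was run on both flow cells, which taken alone gave 2 and 7 (11.7% against 32.6%), and 4 and 10 (18.2% against 35.1%). Rpl35 (higher), Rpl18 and Rps19 (lower) were the 3 members called in all 18 settings run, the reported one included.

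**Figure D4:**
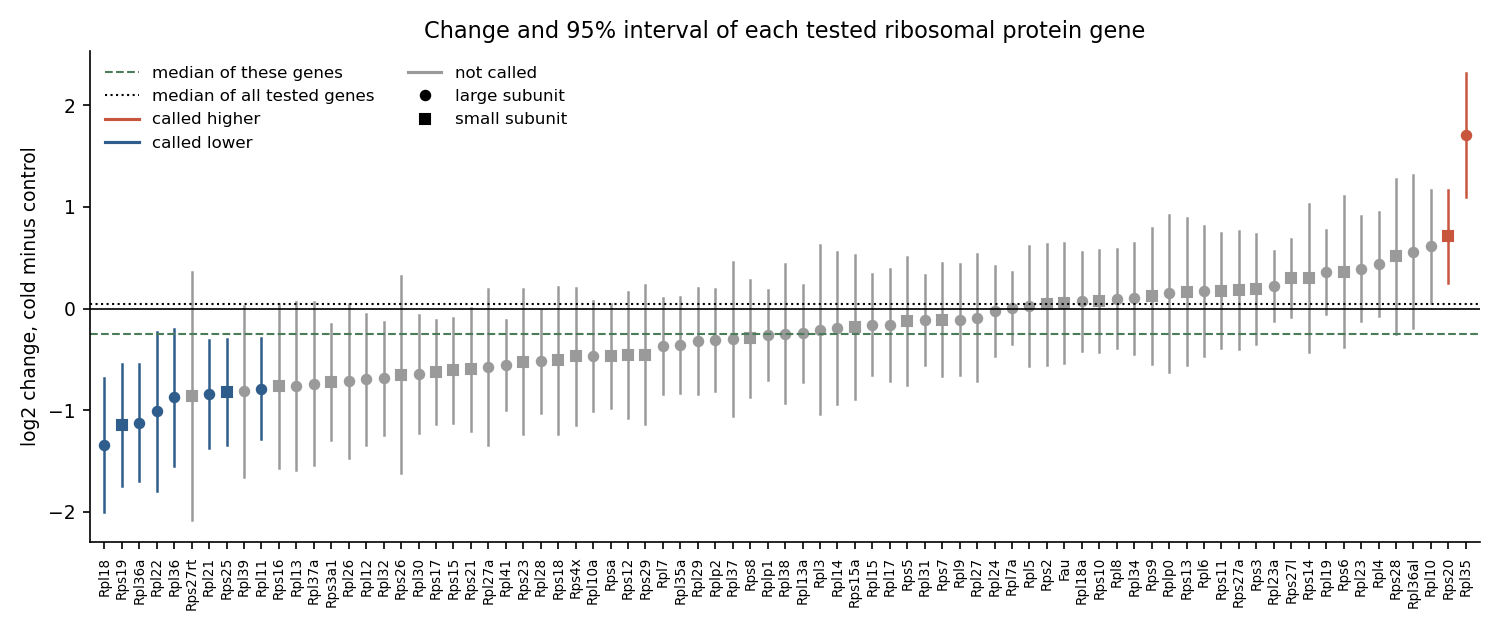
Log2 change (cold minus control) with its 95% interval for the 79 tested ribosomal protein genes, ordered by size, circles for the large and squares for the small subunit. Blue marks the 8 called lower and red the 2 called higher. The dashed median of these genes (-0.25) lies below the dotted median of all tested genes (0.04).

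Rpl35 rose most. This large-subunit protein sits at the rim of the exit tunnel, near where nascent chains and the signal recognition particle meet the ribosome. Its gene (ENSMUSG00000062997, chr2:39001580-39005624) measured 111, 54.5 and 81.0 CPM in control and 284, 211 and 313 CPM in cold. Every cold mouse lay well above every control mouse. The rise was 3.26-fold, a log2 change of 1.70 ± 0.28 (SE, 95% interval 1.09 to 2.32; adjusted p = 0.000993), and 1.45 to 1.97 over the alternatives. Of its reads, 99.5% fell on 1 annotated transcript of 946 nt and 4 exons. The neighbouring gene Arpc5l, an actin-nucleator subunit on the opposite strand, was also higher, at 21.2 ± 2.64 and 50.1 ± 5.70 CPM (SD, n = 3; log2 change 1.25 ± 0.23, SE; adjusted p = 0.00232). It shares 0 exon bases with this transcript of Rpl35.

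Rps20 was the other member called higher. Its protein lies on the head of the small subunit. The gene (chr4:3831334-3835665) measured 539, 369 and 381 CPM in control and 695, 605 and 810 CPM in cold, without overlap. The rise was 1.64-fold, a log2 change of 0.71 ± 0.21 (SE; adjusted p = 0.0222). It was no longer called without control 9, control 14, cold 4 or cold 15, nor with length offsets (log2 change 0.38, adjusted p = 0.213). Of its reads, 99.5% were assigned to a transcript annotated at 3706 nt, and how long the reads were is not known from counts.

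Rpl18 fell most. This large-subunit protein (gene at chr7:45715457-45720836) measured 516, 252 and 307 CPM in control and 134, 107 and 183 CPM in cold. All cold mice lay below all control mice, and the log2 change was -1.34 ± 0.30 (SE; adjusted p = 0.0058), -1.58 to -0.99 over the alternatives. Its reads were split almost evenly between a transcript of 2989 nt (49.96% in control, 50.8% in cold) and one of 679 nt (48.5% and 47.3%). These shares differed by less than their spread between mice.

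Rps19 fell next. Its protein is needed to mature the small subunit, and loss of a copy causes Diamond-Blackfan anaemia in people. The gene (chr7:24884371-24889806) measured 286, 176 and 190 CPM in control and 80.9, 82.1 and 132 CPM in cold, without overlap. The log2 change was -1.14 ± 0.27 (SE; adjusted p = 0.00844), -1.41 to -0.90 over the alternatives. The transcript with the largest single share of its reads, 41.1% in control and 38.9% in cold, is annotated as a target of nonsense-mediated decay, and protein-coding ones took most of the rest.

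The other 6 falls were smaller or less stable. Rpl36a (48.1, 29.8 and 31.8 CPM in control, 18.1, 14.9 and 17.8 CPM in cold) fell by 1.12 ± 0.26 (SE) on the log2 scale (adjusted p = 0.00758), a call lost on the first flow cell alone (log2 change -0.92, adjusted p = 0.0718). Rpl21, of the large subunit, measured 181, 136 and 127 CPM against 87.3, 62.6 and 98.5 CPM and fell by 0.84 ± 0.24 (SE; adjusted p = 0.0207). Rps25, a small-subunit protein used by some viral internal entry sites, measured 274, 162 and 205 CPM against 107, 116 and 142 CPM and fell by 0.82 ± 0.24 (SE; adjusted p = 0.0222). In these 3 genes every cold mouse lay below every control mouse. Rpl11, which with Rpl5 and the 5S RNA can bind Mdm2 and so stabilise p53, measured 291, 236 and 232 CPM against 126, 126 and 188 CPM, again without overlap. It fell by 0.79 ± 0.23 (SE; adjusted p = 0.0206), while Rpl5 stood at a log2 change of 0.03 ± 0.27 (SE; adjusted p = 0.946). Rpl22 (90.9, 45.2 and 45.0 CPM against 26.2, 20.5 and 43.8 CPM) fell by 1.01 ± 0.36 (SE; adjusted p = 0.0485). Rpl36 (169, 103 and 78.0 CPM against 58.4, 50.3 and 82.7 CPM) fell by 0.87 ± 0.31 (SE; adjusted p = 0.0484), with overlapping groups. Rpl11, Rpl21, Rpl22, Rpl36 and Rps25 were all lost from the calls without cold 4, and likewise without cold 11. All of these but Rpl22 were also lost with no filter on low counts, and Rpl21 and Rpl36 after thinning to equal depth. Rpl22 and Rpl36 were lost with library totals in place of TMM and without control 2, and Rpl22 on the first flow cell alone. Rpl36 was further lost with length offsets, on the second flow cell alone and without control 9. On the opposite strand, exons of Trappc4 cover 36.1% of the main transcript of Rps25, and strand use in the counting is not given. Trappc4 itself measured 51.3 ± 3.62 and 36.9 ± 6.38 CPM (SD, n = 3; log2 change -0.47 ± 0.23, SE; adjusted p = 0.134).

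**Figure D5:**
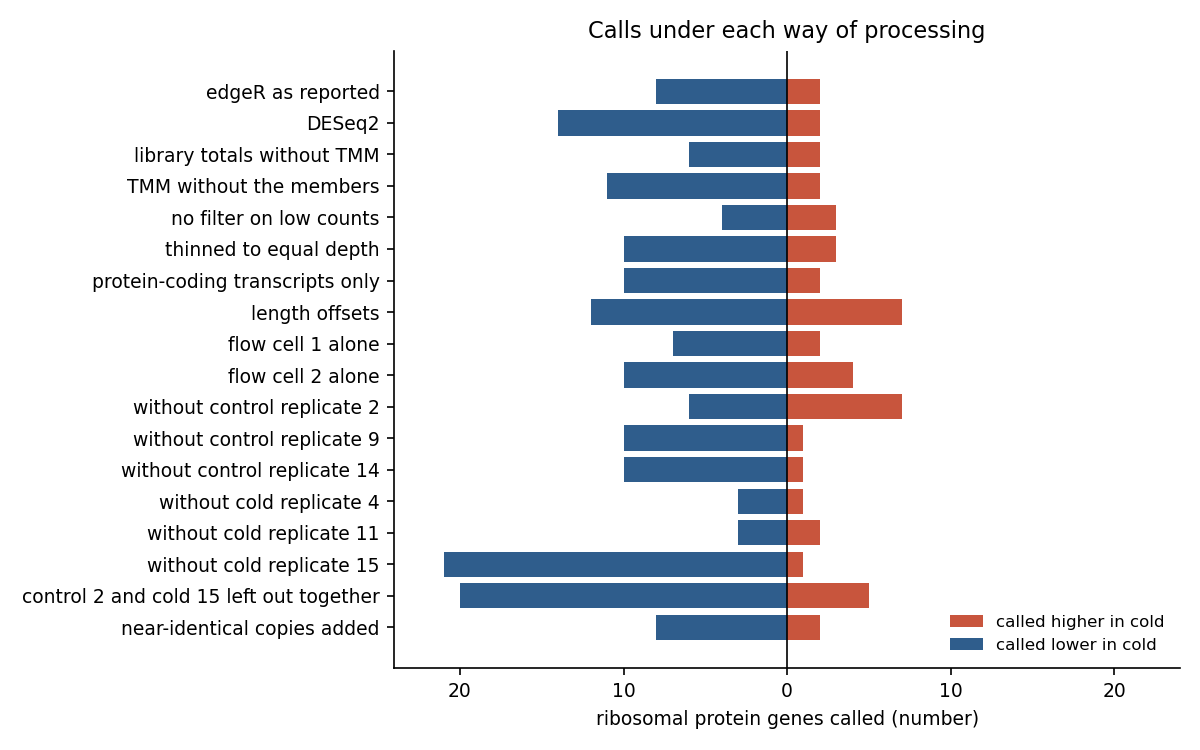
Number of ribosomal protein genes called higher (red, right) and lower (blue, left) in cold under the reported test and each of the 17 alternatives. Lower calls outnumber higher calls in all settings except that without control 2 (7 higher, 6 lower), and range from 3 to 21.

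Members joined to ubiquitin-like proteins or with roles outside the ribosome were not called in the reported test. Rps27a, made as a fusion with ubiquitin, measured 80.1 ± 25.3 and 91.0 ± 18.2 CPM (SD, n = 3; log2 change 0.18 ± 0.26, SE; adjusted p = 0.631). Fau, a fusion of a ubiquitin-like protein with the small-subunit protein eS30, measured 505 ± 164 and 524 ± 155 CPM (SD, n = 3; log2 change 0.05 ± 0.27, SE; adjusted p = 0.893). Rpsa, also known as a laminin receptor, measured 856 ± 188 and 621 ± 171 CPM (SD, n = 3; log2 change -0.46 ± 0.23, SE; adjusted p = 0.15), and was called lower with length offsets (adjusted p = 0.0455), without cold 15 (0.04) and without both control 2 and cold 15. Their intervals, up to 0.76 for Rps27a and down to -0.97 for Rpsa, left room for changes of nearly 2-fold.

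Paralogs gave a less usual picture. Rps27l, a copy of Rps27 known as a p53 target, was the most abundant small-subunit gene under the naming rule, with 14815 reads. It measured 1142, 899 and 795 CPM in control and 1200, 1151 and 1138 CPM in cold (log2 change 0.30 ± 0.17, SE; adjusted p = 0.214), and was called higher with length offsets (adjusted p = 0.0117), without control 2 (0.0347) and without both control 2 and cold 15. Rps27 itself had 10 reads in all 6 libraries together, and the retrogene Rps27rt 81. The coding sequences are printed to show how far reads of these genes can be told apart, from GENCODE M21 on GRCm38 (coordinates span the whole transcript, introns included), with capitals at the bases of Rps27l that differ from Rps27.
Rps27 (chr3:90212671-90213651, minus strand): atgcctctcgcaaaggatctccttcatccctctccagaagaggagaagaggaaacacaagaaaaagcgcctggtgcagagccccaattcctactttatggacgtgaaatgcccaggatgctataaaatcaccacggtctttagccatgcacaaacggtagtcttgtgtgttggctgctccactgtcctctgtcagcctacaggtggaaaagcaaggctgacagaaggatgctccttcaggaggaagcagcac
Rps27l (chr9:66946086-66949512, plus strand): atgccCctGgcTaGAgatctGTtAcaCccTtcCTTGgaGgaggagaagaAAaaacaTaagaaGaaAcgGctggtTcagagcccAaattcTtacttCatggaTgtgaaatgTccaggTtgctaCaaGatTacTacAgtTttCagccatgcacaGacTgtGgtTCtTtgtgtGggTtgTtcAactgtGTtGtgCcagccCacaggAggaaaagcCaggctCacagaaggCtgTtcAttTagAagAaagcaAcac
Rps27l differs from Rps27 at 60 of 252 coding bases (76.2% identity), spread along the whole sequence. The transcripts printed were chosen for the 252-base coding length of Rps27rt and held few of the reads. They took 2091 of the 14815 reads of Rps27l and 1 of the 10 reads of Rps27. Another transcript held 85.4% of the Rps27l reads, and its sequence was not compared. Rps27rt is identical to Rps27 over these 252 bases, so reads of these 2 genes are uncertain, and both together were still scarce. Rps27rt measured 8.14 ± 5.22 and 4.63 ± 3.12 CPM (SD, n = 3; log2 change -0.86 ± 0.55, SE; adjusted p = 0.258).

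Rpl36a and its autosomal paralog Rpl36al encode nearly the same large-subunit protein near the exit site for transfer RNA. Rpl36al measured 40.03, 12.3 and 22.2 CPM in control and 40.6, 34.8 and 38.2 CPM in cold, a log2 change of 0.56 ± 0.34 (SE; adjusted p = 0.234). Its 3 cold values were close together and the groups overlapped only through control 2. Rpl36al was called higher without control 2, and also without both control 2 and cold 15. With control 2 kept, it was called higher after thinning to equal depth (log2 change 1.06, edgeR adjusted p = 0.0325) and with length offsets. Rpl36a was called lower in the reported test, but the difference between Rpl36al and Rpl36a was not tested. The other paralogs were nearly silent: Rpl7l1 had 14 reads, Rpl3l 9, Rpl22l1 3, Rpl39l 2 and Rpl10l none over all 6 libraries. A floor of 3 reads corresponds to 0.988 to 3.08 CPM, so the count of 0 for Rpl10l says only that it lay under that level.

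Near-identical copies that also had reads limit several members. Copies were sought only among transcripts with reads, so a copy that took no reads was not seen. Of the 84 genes with reads, 20 had such a copy at least 95% identical over at least 70% of the main transcript. In 7 the copy held over 10% as many reads as the member. Rps13-ps1 held 6346 reads against 1913 for Rps13, and Rpl9-ps6 held 4334 against 784 for Rpl9. Rpl10-ps3, 100% identical over the part that matched, held 2171 against 2521 for Rpl10, and Rpl36-ps12 held 1252 against 1119 for Rpl36. Levels of Rps13, Rpl9, Rpl10 and Rpl36 are therefore uncertain. With the reads of such copies added to their members, the calls stayed at 2 higher and 8 lower, the same 10 genes. In all, 49 genes named as pseudogenes of this family had 14835 reads, between 0.0776% and 0.147% of a library. GENCODE M21 gives 3 of them, Rpl9-ps6 and Rpl10-ps3 included, the type protein-coding.

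Transcript choice within these genes was not called changed. Of 43 members with at least 2 tested transcripts, 0 were called by the diffSpliceDGE test of edgeR, against 1.67% of all 539 genes so tested. Rpl13a alone had an unadjusted p under 0.05 (edgeR adjusted p = 0.384). Its processed transcript without a coding frame went from 8.20% to 3.89% of the reads of the gene. Among 146 tested transcripts of members, 2 were called higher and 15 lower, where 32.7% of all tested transcripts were called. In 47 of the 79 genes, over 90% of the reads fell on 1 transcript.

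Features of the genes were set beside the changes as description. Tested members with a pyrimidine tract at the RefSeq start (24) had a median level of 208 CPM and a median log2 change of -0.22, with 1 called higher and 1 lower. Those with a window but no tract (35) had 131 CPM and -0.46, with 0 higher and 5 lower by edgeR. Members that hold a small nucleolar RNA gene within their bounds (30) had a median log2 change of -0.23, and those that do not (49) one of -0.26. The difference between such groups was not tested.

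Genes around the ribosome were counted from lists. Beside each list stands the share over all tested genes, 18.1% called higher and 15.1% lower. Of the subunit genes outside the naming rule, Rps24 was lower and Rack1 was not called. Rps24 measured 754 ± 143 and 330 ± 72.2 CPM (SD, n = 3; log2 change -1.19 ± 0.22, SE; adjusted p = 0.00191). Rack1, a scaffold on the small subunit, stood at 0.23 ± 0.18 (SE; adjusted p = 0.363).

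Among 13 tested elongation factors and other messages known for a TOP start, 0 were called higher and 2 lower, with a median log2 change of 0.11. Those were Vim, an intermediate filament gene (-1.09 ± 0.26, SE; adjusted p = 0.00901), and Eef1a1, which brings transfer RNA to the ribosome (-0.59 ± 0.21, SE; adjusted p = 0.0494). Naca, of the nascent chain complex, had a log2 change of 0.38 ± 0.17 (SE; adjusted p = 0.105). Of 45 ribosome assembly genes, 11 could be tested, with 2 higher and 0 lower and a median log2 change of 0.23. These were Nop53 (12.1 ± 3.66 and 30.7 ± 3.26 CPM, SD, n = 3; log2 change 1.30 ± 0.27, SE; adjusted p = 0.00437) and Emg1, an rRNA methyltransferase (log2 change 1.22 ± 0.30, SE; adjusted p = 0.00999). Both are low in level, and most of the list was too scarce to test.

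Of 22 genes listed for the control of ribosomal protein mRNAs, by mTOR and otherwise, 6 were tested, with 1 called higher and 1 lower. Eif4ebp1, whose unphosphorylated protein blocks cap-dependent initiation, measured 66.0, 56.5 and 30.6 CPM in control and 4.70, 6.62 and 11.5 CPM in cold. All cold mice lay far below all control mice (log2 change -2.73 ± 0.38, SE; adjusted p = 0.000443). Rheb, the direct activator of mTOR complex 1, rose from 4.97 ± 1.12 to 12.1 ± 0.973 CPM (SD, n = 3; log2 change 1.28 ± 0.33, SE; adjusted p = 0.0116). With control 2 at 3.79 CPM, it passed the filter on low counts only through its cold libraries, so nothing about the list is drawn from this call. Ddit4, an inhibitor of mTOR complex 1, had a log2 change of 0.61 ± 0.29 (SE; adjusted p = 0.123).

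Of the genes that respond to free ribosomal proteins, only Cdkn1a, a p53 target and cell cycle inhibitor, could be tested. It measured 1.08, 0 and 0.600 CPM in control, under the 3-read floor in each, and 10.7, 32.4 and 30.3 CPM in cold, and was called higher (adjusted p = 0.000395). Because it passed the filter on low counts only through its cold libraries, nothing about the list is drawn from this call. Serbp1, which clamps idle ribosomes, was the 1 tested gene of quality control, with a log2 change of -0.52 ± 0.24 (SE; adjusted p = 0.12). Of 67 tested mitochondrial ribosomal protein genes, 11 were called higher and 6 lower, against 18.1% and 15.1% of all tested genes. Their median log2 change was -0.02. The 3 with the smallest p were Mrpl42 (log2 change 1.76 ± 0.19, SE; adjusted p = 1e-04), Mrps18a (2.20 ± 0.29, SE; adjusted p = 0.000276) and Mrps15 (-1.13 ± 0.19, SE; adjusted p = 0.00114).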

How the data were processed

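The deposited files hold raw counts: per the file headers, a read number for every Ensembl transcript, with a file for each of 2 flow cells per library. Per the submitters' processing notes, minimap2 and GRCm38 were used. The handling of reads that fit several transcripts, and of strand, is not stated in these sources. No molecular identifiers are named, so counting errors and floors do not cover PCR.

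Of 14693 transcript identifiers, 14671 matched GENCODE M21. Counts were summed over flow cells and transcripts of a gene and tested with edgeR 4.0.16 in R 4.3.3: filterByExpr (minimum count 10), TMM scaling, robust quasi-likelihood F test, Benjamini-Hochberg adjustment over all tested genes, calls at an adjusted p under 0.05. The mice differ, and p-values measure the spread between 3 mice a group. The SE was worked back from F as |log2 change|/√F. Fits were tested on simulated data. Copies were found with blastn 2.17.0 among transcripts with reads. Start windows and sequences come from RefSeq (GRCm38.p6).

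Members, lists and alternatives were chosen with earlier results of these data known. Named members are the 8 most abundant, up to 8 called rises and falls of at least 32 CPM, stalk genes, ubiquitin-like fusions, Rpsa, paralogs with their parent genes, members called for transcript usage and members not tested. Of each pathway list the 3 genes with the smallest p are named, except 1 that is not reported here. Rpl3, Rpl5, Rpl9, Rpl10, Rpl13a, Rps13 and Rps27rt were named after their values were seen, as were the genes whose starts are printed and the overlapping Arpc5l and Trappc4. The joint omission of control 2 and cold 15, and the addition of copies, were alternatives chosen after seeing the data. The others were DESeq2 1.42.0, library totals, TMM without the members, no filter, thinning to equal depth, protein-coding transcripts only, length offsets, each flow cell alone and each library left out. The share and ratio of reads were also recomputed with pseudogenes added, without mitochondrial reads and without paralogs.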

Additional observations from a re-analysis of the deposited data

How the results depend on the processing

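Rpl35, Rpl18 and Rps19 were called in the same direction under all 17 alternatives of the gene test. The reported counts of 2 members called higher and 8 lower depended on the processing. DESeq2 called 14 lower, with 20.3% of members called in either direction against 32.8% of all genes. No filter on low counts gave 4 lower, with 8.33% of members called in either direction against 8.71% of all genes, a share lowered by the scarce genes added. Length offsets called 7 higher (24.1% against 37.2% in either direction) and the second flow cell alone 4 higher (18.2% against 35.1%). Leaving out control 2 with cold 15 called 5 higher and 20 lower (32.1% against 32.5%), but that pair was picked from the members' own values. Leaving out each library in turn gave 1 to 7 higher and 3 to 21 lower, 5.06% to 27.8% of members against 24.6% to 29.8% of all genes. The cause was not tested. The members' median log2 change stayed below 0, from -0.46 without cold 15 to -0.03 without control 2. Relative to the median of the 2093 genes, where tested, it was -0.29 in the reported test, -0.14 with length offsets, -0.07 without control 2 and -0.47 without cold 15. No filter on low counts moved that median from 0.04 to 0.16, and the members to -0.30 relative to it. The ratio of large-subunit to small-subunit reads rose from 2.20 to 2.38 in control and from 2.27 to 2.41 in cold with protein-coding transcripts only, and to 2.47 and 2.68 without paralogs, which takes out the small-subunit gene Rps27l. No member was called for transcript usage under any alternative run, all by edgeR. No paired analysis was possible because the groups share no mouse numbers. Control libraries were shallower, down to 1014812 reads, which limits the precision of members near the floor such as Rpl3.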
